A study of Mus musculus with 8 samples.

Results

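The genes described here are 9 transcripts used as markers of adventitial and inflammatory fibroblasts: Pi16, Dpt, Clec3b, Ly6c1, Has1, Has2, Cxcl12, Dcn and Lum. They were named by symbol, and all 9 were found among the 19129 genes analysed. The pan-fibroblast collagen gene Col1a1 served as the gene they were set against. RNA was sequenced from pancreatic tumour isografts, which are grafts between genetically identical animals. The isografts came from 8 mice, 4 under the label MEKi and 4 under the label control. The MEKi mice had 7 days of trametinib, which inhibits the kinases MEK1 and MEK2. The sources used here do not state what the control mice were given, the genotype of the tumour cells, or the strain and age of the mice. Each library is bulk RNA, so fewer cells of a type and less RNA per cell cannot be told apart.

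Fibroblasts of pancreatic tumours include contractile cells close to the cancer cells and cells that secrete cytokines, chemokines and hyaluronan, often called inflammatory. Adventitial fibroblasts sit around vessels and at organ borders in healthy tissue, and Pi16 marks them across many mouse organs. Ly6c1 is also expressed by mouse endothelial cells, and Has1 by mesothelial cells.

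Values are on the authors' variance-stabilised scale, which approaches log2 of the reads at high counts and is compressed at low counts, so that a difference understates the fold of a gene with few reads. Reads in tested genes numbered between 20182531 and 38569550 in MEKi libraries and between 20090101 and 31797960 in control libraries. Limma called 1 of 19129 genes between the labels (0.00523%), a gene that is not among those described here. Dusp6, a phosphatase gene induced by ERK signalling and therefore a check of the drug label, had 8.88, 12.12, 12.20 and 11.01 in MEKi 1 to 4, against 12.19, 12.14, 9.31 and 9.24 in control 1 to 4. High and low Dusp6 libraries occurred under both labels, and MEKi and control below refer to the labels of the libraries. All 8 epithelial and all 12 pan-fibroblast markers had reads in every library. Acinar markers, which come from exocrine pancreas, varied most among the marker lists. Their 12 measured genes of 13 took between 12.7 and 2481 RPM (reads scaled to the depth of the library) in MEKi libraries and between 211 and 116867 in control libraries, and Amy2a5 and Rbpjl had 0 reads in at least 1 library.

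Across these genes no difference between the labels passed the test. All 9 had lower means in MEKi libraries, where 48.4% of all genes did. The 9 do not count as separate observations, since 5 of them moved together over the libraries. Has2 and Cxcl12 changed sign in 4 and 3 of the 8 fits that left 1 library out. Limma called 0 of the 9, against 0.00523% of all genes. At an unadjusted p under 0.05 only Pi16 passed, against 1.77% of all genes. The 9 had a median difference of -0.37, beside 0.01 over all genes. The spread between mice was wide: Has2 had an SD of 1.13 over the 8 libraries, and 0.69% of all genes had a larger one. The members divided into a set that moved together (Pi16, Clec3b, Dpt, Dcn and Lum) and 4 genes with other patterns. This division was made after the values were seen and carries no test.

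Pi16 encodes a secreted peptidase inhibitor and is a widely used adventitial marker (chromosome 17, 29317680 to 29330593, plus strand). It had 8.82, 7.41, 6.80 and 7.58 in MEKi 1 to 4, against 7.99, 9.10, 8.65 and 8.60 in control 1 to 4. In MEKi libraries 3 of 4 values lay below the lowest control value, while MEKi 1 lay above 3 of the 4 control libraries. The means were 7.66 ± 0.85 under MEKi and 8.59 ± 0.45 under control (SD, n = 4 each). The log2 difference was -0.93 (SE 0.40, 95% interval -1.82 to -0.04), and it did not pass adjustment over all genes (limma adjusted p = 0.9996). The unadjusted p was 0.0421 by limma, and 0.114 by the two-sided exact permutation test, whose 70 relabellings allow no p below 0.0286. In reads divided by the library size factor, the means were 169 in MEKi libraries and 332 in control libraries, a ratio of 0.508.

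Clec3b encodes tetranectin, a plasminogen-binding C-type lectin (chromosome 9, 123150946 to 123157432, plus strand). It had 7.86, 6.42, 5.56 and 6.88 in MEKi 1 to 4, against 6.98, 7.64, 8.31 and 7.15 in control 1 to 4. The same pattern as in Pi16 was seen, with MEKi 1 inside the control range and the other 3 MEKi libraries below it. The values rest on few reads, 185, 24, 4 and 92 in MEKi 1 to 4 and 60, 158, 184 and 67 in control 1 to 4. MEKi libraries were lower by a log2 difference of -0.84 (SE 0.46, interval -1.88 to 0.20).

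Dpt encodes dermatopontin, a matrix protein that binds decorin (chromosome 1, 164796644 to 164824266, plus strand). Its values were 9.84, 8.20, 8.15 and 8.56 in MEKi 1 to 4, against 8.94, 9.77, 9.56 and 8.54 in control 1 to 4. MEKi 1 was the highest of all 8 libraries and the groups overlapped. For Dpt the log2 difference was -0.51 (SE 0.40, interval -1.41 to 0.38).

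The promoters of Pi16 and Dpt are shown because these genes varied together over the libraries, and that of Cxcl12 because it did not follow them. The 250 bases before the RefSeq start (GRCm38.p6) are printed 5′ to 3′ on the plus strand, at chr17:29318632-29318881 for Pi16, chr1:164796413-164796662 for Dpt and chr6:117168285-117168534 for Cxcl12. The RefSeq starts of Pi16 and Dpt lie inside the GENCODE genes. Capitals mark matches to the motifs searched.
Pi16: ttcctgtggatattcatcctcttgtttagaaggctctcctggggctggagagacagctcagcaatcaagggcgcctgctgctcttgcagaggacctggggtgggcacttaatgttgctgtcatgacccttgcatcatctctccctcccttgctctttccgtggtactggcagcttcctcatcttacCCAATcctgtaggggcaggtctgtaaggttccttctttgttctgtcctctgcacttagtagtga
Dpt: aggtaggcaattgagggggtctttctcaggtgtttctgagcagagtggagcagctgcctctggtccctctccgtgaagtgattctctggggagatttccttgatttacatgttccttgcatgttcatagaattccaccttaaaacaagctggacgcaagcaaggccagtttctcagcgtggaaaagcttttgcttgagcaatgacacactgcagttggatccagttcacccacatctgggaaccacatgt
Cxcl12: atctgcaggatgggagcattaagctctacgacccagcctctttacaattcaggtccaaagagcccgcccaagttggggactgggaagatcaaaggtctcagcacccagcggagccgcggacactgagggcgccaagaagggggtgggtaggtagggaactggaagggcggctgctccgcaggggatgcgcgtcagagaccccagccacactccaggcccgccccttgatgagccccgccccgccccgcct

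The motifs were the TATA box TATAAA, the CCAAT box CCAAT, the AP-1 site TGANTCA and the TEAD site GGAATG, each on both strands and with no overlap between matches here. Pi16 held 1 CCAAT match and none of the other 3. Dpt and Cxcl12 held none of the 4. Among 32851 promoter windows of this length, 12.4% held TATAAA, 33.8% CCAAT, 6.75% TGANTCA and 12.6% GGAATG. The share of G and C was 52.4% in the Pi16 window, 48.8% in the Dpt window and 64.4% in the Cxcl12 window, with a median of 52.4% over all windows. Of the 9 genes, 5 had an entry in the table of promoters.

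Dcn and Lum encode decorin and lumican, small leucine-rich proteoglycans that bind collagen fibrils. They are neighbours on the plus strand of chromosome 10, Dcn at 97479609 to 97518143 and Lum at 97565128 to 97572703. Dcn had 12.46, 10.97, 10.28 and 11.73 in MEKi 1 to 4, against 11.68, 12.79, 12.62 and 11.37 in control 1 to 4. MEKi 2 and MEKi 3 lay below every control library and the other MEKi libraries lay inside the control range. For Dcn the log2 difference was -0.75 (SE 0.47, interval -1.81 to 0.30), and the ratio of mean scaled reads was 0.631. Lum had 12.29, 10.27, 10.94 and 11.72 in MEKi 1 to 4, against 11.35, 12.01, 11.85 and 11.49 in control 1 to 4. MEKi libraries held both the highest and the lowest Lum values, with an SD of 0.88 in MEKi and 0.31 in control libraries. For Lum the log2 difference was -0.37 (SE 0.38, interval -1.22 to 0.47).

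Has1 and Has2 encode hyaluronan synthases of the plasma membrane, which extrude the polysaccharide into the matrix. Has1 (chromosome 17, 17843323 to 17855205, minus strand) had few reads, with 1, 13, 6 and 14 reads in MEKi 1 to 4 and 9, 55, 10 and 1 reads in control 1 to 4. Its values were 5.35, 6.09, 5.65 and 5.84 in MEKi 1 to 4, against 5.88, 6.72, 6.01 and 5.38 in control 1 to 4, where 5.12 stands for 0 reads. The highest library was control 2, and the log2 difference was -0.26 (SE 0.27, interval -0.86 to 0.33).

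Has2 (chromosome 15, 56665627 to 56694539, minus strand) fell into 2 sets of libraries that crossed the labels. Its values were 7.58, 10.03, 8.82 and 7.51 in MEKi 1 to 4, against 9.67, 9.73, 7.56 and 7.54 in control 1 to 4. MEKi 1, MEKi 4, control 3 and control 4 lay between 7.51 and 7.58, while the other 4 libraries lay at 8.82 or above. The difference between the labels was -0.14 (SE 0.69, interval -1.69 to 1.41), an interval that leaves room for a change of more than 1 in either direction. Has3, the remaining hyaluronan synthase gene, had 7.42, 9.45, 8.74 and 8.07 in MEKi 1 to 4, against 9.06, 8.96, 7.39 and 7.16 in control 1 to 4. The libraries with the highest Has2 values also had the highest Has3 values.

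Cxcl12 encodes the chemokine that binds the receptor CXCR4 and is secreted by inflammatory and perivascular fibroblasts (chromosome 6, 117168535 to 117181367, plus strand). It had 8.70, 9.07, 10.17 and 8.17 in MEKi 1 to 4, against 8.96, 9.64, 9.63 and 8.41 in control 1 to 4. MEKi 3 was the highest and MEKi 4 the lowest of all libraries, so the MEKi values enclosed the control values. The log2 difference was -0.13 (SE 0.42, interval -1.08 to 0.81), and mean scaled reads were 532 in MEKi libraries and 540.1 in control libraries. Cxcr4 had 9.33 ± 0.21 under MEKi and 9.57 ± 0.37 under control (SD, n = 4 each). Ackr3, which encodes a scavenging receptor for CXCL12, had 9.46 ± 0.44 under MEKi and 9.41 ± 0.11 under control, and Dpp4, a surface peptidase gene whose product trims CXCL12, had 8.90 ± 0.67 under MEKi and 8.64 ± 0.34 under control.

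Ly6c1 encodes a GPI-anchored surface protein of the Ly6 family (chromosome 15, 75044018 to 75048830, minus strand). It had 9.92, 10.29, 10.47 and 9.39 in MEKi 1 to 4, against 10.90, 10.33, 9.69 and 10.13 in control 1 to 4. The highest library was control 1 and the lowest MEKi 4, and the groups overlapped. The log2 difference was -0.24 (SE 0.29, interval -0.88 to 0.40).

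Some Ly6c1 reads may be uncertain because Ly6c2, a gene of mouse monocytes on the same chromosome, has a nearly identical coding sequence. Only coding bases were compared, and the annotated exons hold 1677 bases in Ly6c1 and 2740 in Ly6c2. The coding sequences of 396 bases differ at 9 positions (97.7% identical), and the longest stretch without a difference has 188 bases. The opening 150 coding bases, from GENCODE M21 transcripts on GRCm38, hold 6 of the differences, shown in capitals.
Ly6c1: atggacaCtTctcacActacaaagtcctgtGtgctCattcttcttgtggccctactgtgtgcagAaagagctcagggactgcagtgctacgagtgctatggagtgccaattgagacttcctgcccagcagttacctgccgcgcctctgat
Ly6c2: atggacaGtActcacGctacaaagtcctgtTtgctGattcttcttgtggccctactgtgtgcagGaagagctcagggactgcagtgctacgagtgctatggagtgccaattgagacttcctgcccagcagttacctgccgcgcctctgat
No source used here says how reads matching both genes were counted. Ly6c2 was far lower in this table, with 54, 34, 209 and 49 reads in MEKi 1 to 4 and 36, 73, 37 and 51 in control 1 to 4, while Ly6c1 had between 929 and 1659 in MEKi and between 553 and 1651 in control libraries. MEKi 3 had the highest Ly6c2 value of the 8 libraries. Ly6a, a further gene of the family also used as a marker of adventitial fibroblasts, had 13.84 ± 0.59 under MEKi and 14.05 ± 0.38 under control (SD, n = 4 each). It had between 12742 and 19408 reads in MEKi and between 8540 and 20820 in control libraries. Its Pearson r with Pi16, Dpt, Clec3b, Dcn and Lum lay between -0.31 and 0.14. Which cells these reads came from was not tested.

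**Figure D1:**
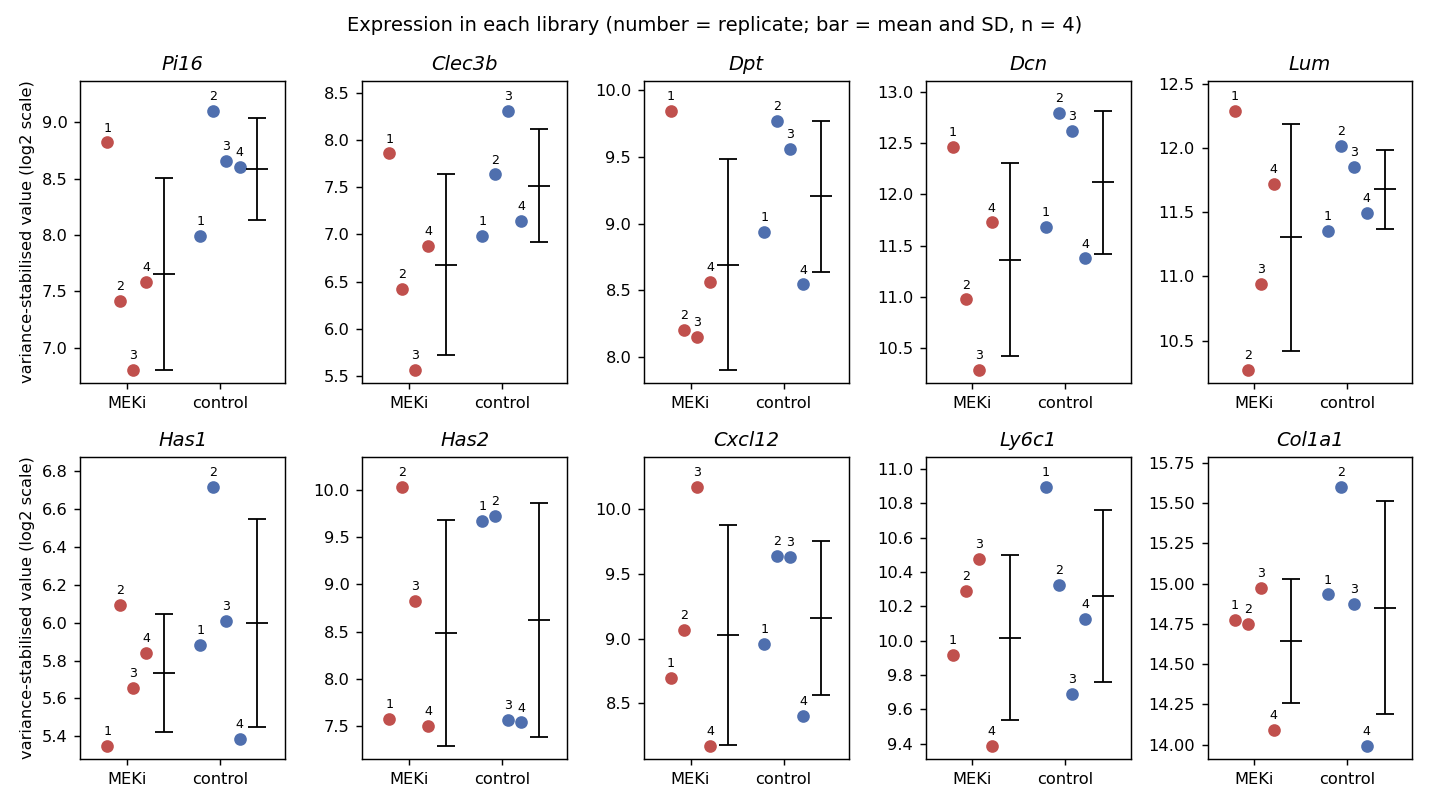
Values of the 9 genes and Col1a1 on the variance-stabilised log2 scale, a panel for each gene, with MEKi libraries left and control libraries right. Points are libraries numbered by replicate and bars are mean and SD (n = 4). MEKi 1 is the highest MEKi library for Pi16, Clec3b, Dpt, Dcn and Lum, while Has2 takes high and low values under both labels.

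Levels of different genes were compared as RPKM, reads scaled to exon length and to the library's reads in tested genes, and the length counts every annotated exon of a gene, which lowers the level of genes with long minor transcripts such as Cxcl12 and Dcn. Over the 8 libraries the median level in RPKM was 168 for Col1a1, 47.9 for Lum, 26.1 for Ly6c1, 22.3 for Dcn, 8.49 for Dpt, 2.996 for Clec3b, 2.48 for Has2, 2.15 for Cxcl12, 1.45 for Pi16 and 0.0835 for Has1. Col1a1 was above Lum in 8 of 8 libraries with no overlap. Dcn was above Dpt, Dpt above Clec3b, and Pi16 above Has1 in 8 of 8 libraries each. The neighbours Lum and Ly6c1, Ly6c1 and Dcn, Clec3b and Has2, Has2 and Cxcl12, and Cxcl12 and Pi16 changed places between libraries and are not ordered beyond their spread. Pi16 lay between 0.341 and 2.45 in MEKi and between 1.17 and 2.76 in control libraries on this scale. RPM and RPKM are shares of a library's reads. The acinar markers took 40544.5 RPM in control 2 and 116867 RPM in control 3, which lowers the shares of other genes there.

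The members were next set against Col1a1 library by library. Col1a1 encodes the alpha 1 chain of type I collagen (chromosome 11, 94936224 to 94953042, plus strand). It had 14.77, 14.75, 14.97 and 14.09 in MEKi 1 to 4, against 14.93, 15.60, 14.87 and 13.99 in control 1 to 4, a log2 difference of -0.20 (SE 0.32, interval -0.92 to 0.51). Replicate 4 was the lowest library under both labels and control 2 was the highest of all.

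With the Col1a1 value of each library subtracted, no member passed the test either. Limma called 0 of the 9, beside 44 of 19128 genes (0.23%), all lower, and none of the 9 had an unadjusted p under 0.05. The differences of all genes in this fit share the error of Col1a1, and their median was 0.21. Limma's SEs here were pooled over genes of like level. They, the intervals and the calls therefore do not measure the spread of each gene by itself. The SD of Dcn relative to Col1a1 was 1.16 in MEKi and 0.42 in control libraries, and that of Clec3b was 1.14 and 0.73. For the members, the relative difference was -0.73 for Pi16 (SE 0.47, interval -1.65 to 0.20), -0.64 for Clec3b (SE 0.47), -0.55 for Dcn (SE 0.43), -0.31 for Dpt (SE 0.46) and -0.17 for Lum (SE 0.43). It was -0.06 for Has1, -0.04 for Ly6c1, 0.06 for Has2 and 0.07 for Cxcl12, each with an SE between 0.44 and 0.47. The interval of Cxcl12 ran from -0.83 to 0.97 and that of Has2 from -0.85 to 0.98. The smallest exact permutation p over the 70 relabellings was 0.257, for Pi16, two-sided.

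The differences of the set that moved together depended on which library was left out. Dcn lay -2.31, -3.78, -4.69 and -2.36 from Col1a1 in MEKi 1 to 4, against -3.25, -2.81, -2.25 and -2.62 in control 1 to 4. MEKi 1 and MEKi 4 thus lay inside the control range and only MEKi 2 and MEKi 3 below it. The Dcn relative difference was -0.88 without MEKi 1 and -0.08 without MEKi 3. For Pi16 it was -1.07 without MEKi 1 and -0.33 without MEKi 3. Before Col1a1 was subtracted, the Pi16 difference was -1.32 without MEKi 1 and -0.65 without MEKi 3, and that of Clec3b was -1.23 and -0.47 in the same fits. The Lum difference was -0.70 without MEKi 1 and -0.03 without MEKi 2.

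**Figure D2:**
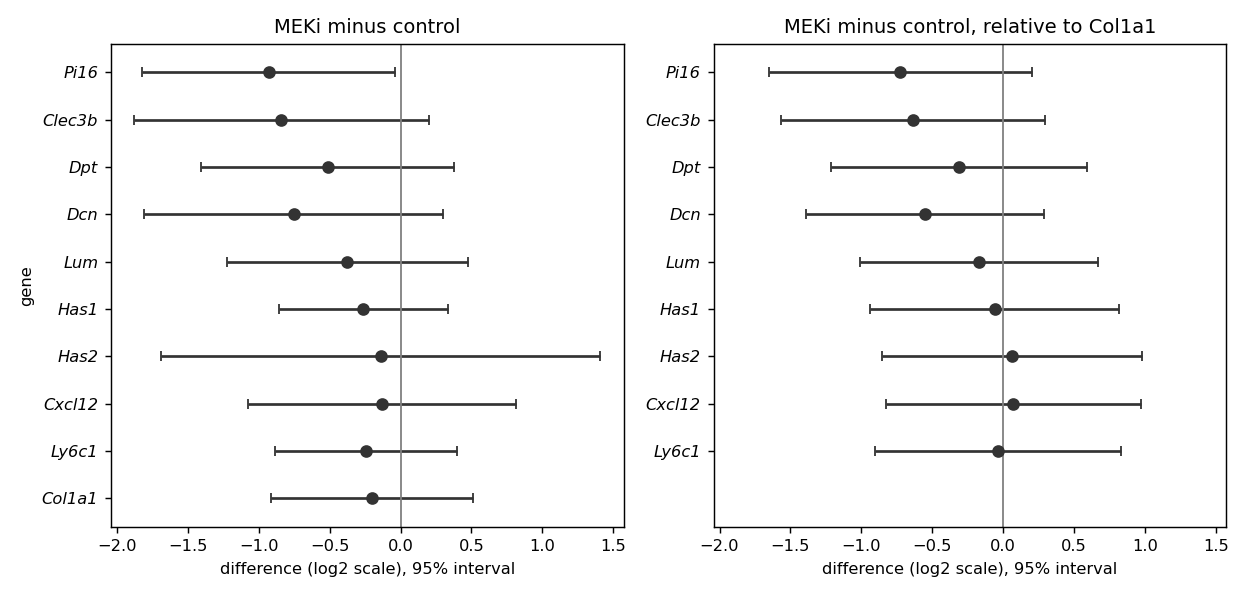
Difference MEKi minus control of each gene (points) with its 95% interval from limma (bars), on the log2 scale, left for the values as deposited and right relative to Col1a1. The left interval of Pi16, -1.82 to -0.04, does not reach 0, but its adjusted p is 0.9996, and every interval on the right includes 0. The intervals on the right use SEs pooled over genes.

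Across the 8 libraries, the correlation with Col1a1 differed from gene to gene. Cxcl12 had the highest value, with Pearson r = 0.77 (exact permutation p = 0.0274) and Spearman rho = 0.83 (exact permutation p = 0.0154), and r stayed at 0.77 without control 2 and control 4, the libraries farthest from the Col1a1 median. Of all genes, 3.15% had a higher r with Col1a1, and after adjustment over 19128 genes the permutation p for Cxcl12 was 0.395. Has1 had r = 0.68 (exact permutation p = 0.0659) and rho = 0.43 (exact permutation p = 0.299), but r was -0.07 without those 2 libraries, so the relation rested on them. Ly6c1 had r = 0.48 (exact permutation p = 0.223) and rho = 0.62 (exact permutation p = 0.115), and r was 0.72 without them. Has2, whose libraries fall into separate sets, is left out of the correlations with Col1a1 and between members given here.

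For the 5 genes that moved together, r with Col1a1 was between 0.09 and 0.48. Dpt had r = 0.48 (exact permutation p = 0.238, rho = 0.24 with p = 0.582), and r was 0.14 without control 2 and control 4. Dcn had r = 0.31 (exact permutation p = 0.458, rho = 0.26 with p = 0.536), Pi16 0.20 (p = 0.624, rho = 0.19 with p = 0.665), Clec3b 0.12 (p = 0.794, rho = 0.05 with p = 0.935) and Lum 0.09 (p = 0.837, rho = 0.12 with p = 0.793), all by exact permutation. Without the same 2 libraries these values of r were -0.15 for Dcn, 0.08 for Pi16, -0.04 for Clec3b and -0.21 for Lum. In all, 9 relations with Col1a1 were computed, Has2 included, and the adjusted permutation p over all genes was 0.395 or more in each.

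**Figure D3:**
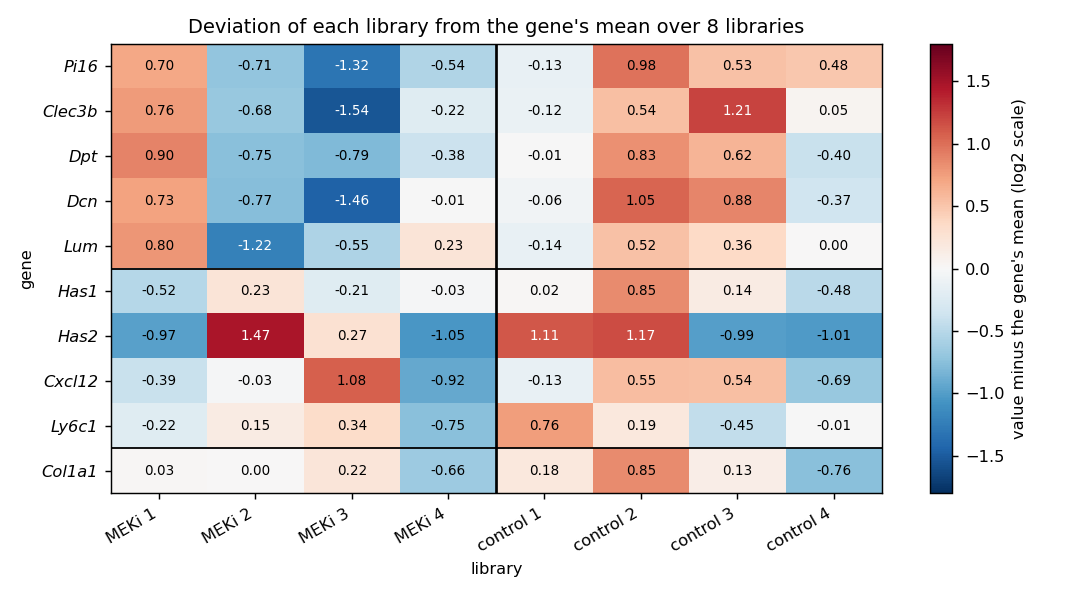
Each cell is the value of a gene in a library minus the mean of that gene over the 8 libraries, on the log2 scale, with MEKi libraries left of the line. Pi16, Clec3b, Dpt, Dcn and Lum are above their means in MEKi 1, control 2 and control 3 and below them in MEKi 2 and MEKi 3. Col1a1 is above its mean in MEKi 3.

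Among the 28 pairs of the 8 genes other than Has2, the 10 pairs within Pi16, Clec3b, Dpt, Dcn and Lum had Pearson r between 0.76 and 0.94 over 8 libraries. The 15 pairs between these 5 and Has1, Cxcl12 and Ly6c1 had r between -0.42 and 0.36, and the 3 pairs among the last-named genes between 0.15 and 0.41. These ranges are a description, since the set was chosen by its values, and no p is given for them. Dcn and Dpt had r = 0.94 and rho = 0.90, and r was 0.93 without the 2 libraries farthest from the Dpt median. Among all other genes, only 1 had a higher r with Dpt than Dcn. Dcn and its neighbour Lum had r = 0.82 and rho = 0.88, and 141 other genes had a higher r with Dcn, so Lum was not the gene closest to Dcn. Without control 2 and control 3, the 2 libraries with the highest acinar values, the 10 pairs had r between 0.70 and 0.96 over 6 libraries. The 15 pairs with Has1, Cxcl12 and Ly6c1 then had r between -0.77 and -0.14, so their range depended on these 2 libraries.

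**Figure D4:**
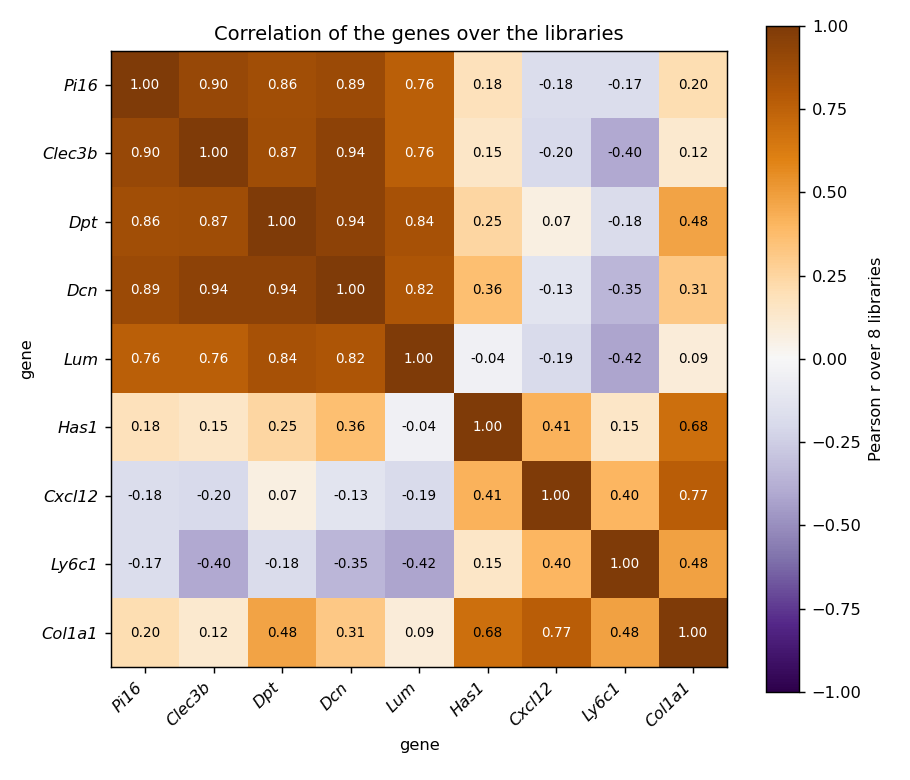
Pearson r over the 8 libraries for each pair of Col1a1 and the genes other than Has2, both axes listing genes. The block of Pi16, Clec3b, Dpt, Dcn and Lum holds values from 0.76 to 0.94, and Col1a1 has its highest value, 0.77, with Cxcl12.

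Genes with the most similar pattern over the 8 libraries were sought by Pearson r among 9353 named genes of at least median level, the other members left out, as a measure of likeness only. For Pi16 the closest was Neat1, a nuclear long non-coding RNA gene (r = 0.93), for Dpt Atf6b (r = 0.90), for Dcn Grhpr (r = 0.95) and for Lum Crispld2 (r = 0.97). For Clec3b it was Gcg, the preproglucagon gene of islet alpha cells (r = 0.96), which had 9.95, 7.84, 5.34 and 8.90 in MEKi 1 to 4 and 8.68, 8.99, 11.44 and 8.97 in control 1 to 4. For Has2, where r serves only to rank genes and does not describe a relation within either set of libraries, it was Plaur, the urokinase receptor gene (r = 0.99), with 10.54, 12.30, 11.52 and 10.42 in MEKi 1 to 4 and 11.97, 12.12, 10.73 and 10.37 in control 1 to 4. Plaur had the same 4 high and 4 low libraries as Has2, which follows from its choice by r. For Cxcl12 the closest was Cfp, the properdin gene (r = 0.95), for Ly6c1 Zdhhc15 (r = 0.96), for Has1 Sp2 (r = 0.96) and for Col1a1 Col5a1 (r = 0.98).

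Markers of other tissue compartments were set beside the members, in 90 relations between the 9 genes and 10 marker lists. None passed adjustment over the 90, where the smallest adjusted permutation p was 0.244. The mean of the acinar markers was 8.96, 8.34, 5.91 and 11.13 in MEKi 1 to 4, against 9.07, 14.79, 16.41 and 8.32 in control 1 to 4. Dcn had a correlation with it of r = 0.83 (exact permutation p = 0.0113) and rho = 0.88 (exact permutation p = 0.00724), and r was 0.72 without control 2 and control 3 (adjusted permutation p = 0.244). Clec3b had r = 0.78 with it (exact permutation p = 0.0217, rho = 0.64 with p = 0.0962), and r was 0.62 without them. Pi16 had r = 0.63 (exact permutation p = 0.099, rho = 0.60), Dpt 0.68 (p = 0.0677, rho = 0.69) and Lum 0.54 (p = 0.162, rho = 0.60). Without control 2 and control 3, r fell to 0.38 for Pi16, 0.35 for Dpt and 0.45 for Lum. Has1 had r = 0.62, Cxcl12 0.14 and Ly6c1 -0.42, and without the same libraries 0.17, -0.88 and -0.60. All 12 acinar markers had lower means under MEKi, with a median difference of -4.03, and limma called 0 of them. With the acinar mean as covariate, the MEKi minus control differences were -0.59 for Pi16, -0.23 for Clec3b, -0.053 for Dcn, -0.061 for Dpt and -0.036 for Lum, beside -0.93, -0.84, -0.75, -0.51 and -0.37 without it. In the same fit Ly6c1 had -0.62 (SE 0.26, unadjusted p = 0.0457, adjusted p = 0.9998 by limma), beside -0.24 without the covariate, and Has2 had -0.41, beside -0.14. With control 2 and control 3 left out, an alternative chosen after seeing the data, the differences were -0.64 for Pi16, -0.39 for Clec3b, -0.16 for Dcn, -0.05 for Dpt and -0.12 for Lum. The cause of these relations and changes was not tested.

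Mesothelial markers, which label the lining of the abdominal cavity, had means between 7.32 and 7.67 in MEKi libraries and between 7.46 and 8.32 in control libraries. All 7 were measured and only Lrrn4 had 0 reads in a library. Of their summed reads, 96.6% to 99.3% belonged to Msln, a gene that pancreatic cancer cells also express. The mean used for r below weighs the 7 genes alike, so the 6 with far fewer reads make up 6 of its 7 values. The other 6 summed to between 8.22 and 14.3 RPM in MEKi and between 7.22 and 26.0 RPM in control libraries, and the sum of all 7 lay between 574 and 1048 RPM in MEKi and between 689.9 and 1028 RPM in control libraries. Dcn had r = 0.87 with them (exact permutation p = 0.00303, rho = 0.90 with p = 0.00456), and r was 0.84 without MEKi 3 and control 2. Dpt had r = 0.80 (exact permutation p = 0.00918, rho = 0.83 with p = 0.0154), and r was 0.71 without the same libraries. Has1 had r = 0.74 (exact permutation p = 0.0403, rho = 0.55 with p = 0.171), and r was 0.30 without the same libraries. The 12 blood endothelial markers had means between 8.98 and 9.55 in MEKi and between 8.90 and 9.97 in control libraries, and summed to between 292 and 474 RPM in MEKi and between 278 and 558 in control libraries, and none was at 0. Has1 had r = 0.77 with them (exact permutation p = 0.0208, rho = 0.76 with p = 0.0368), and r was 0.67 without control 1 and control 2. Ly6c1 had r = 0.67 (exact permutation p = 0.0674, rho = 0.64 with p = 0.0962), and r was 0.47 without the same libraries. The adjusted permutation p was 0.244 for Has1 and 0.357 for Ly6c1. The endothelial mean was 8.98, 9.55, 9.51 and 9.18 in MEKi 1 to 4, against 9.85, 9.97, 9.17 and 8.90 in control 1 to 4. Its 4 highest libraries were the 4 with high Has2. Pooled over all libraries, Has2 had r = 0.90 with this mean (exact permutation p = 0.0089, rho = 0.76 with p = 0.0368), above that of Has1. It was 0.86 without control 1 and control 2, and the adjusted permutation p was 0.244. Because Has2 falls into separate sets of libraries, this r does not describe a relation within either set. With this mean as covariate, the Has2 difference was 0.31 (SE 0.33, limma adjusted p = 0.985), opposite in sign to the -0.14 without it. Whether mesothelial or endothelial cells contribute to these values was not tested.

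**Figure D5:**
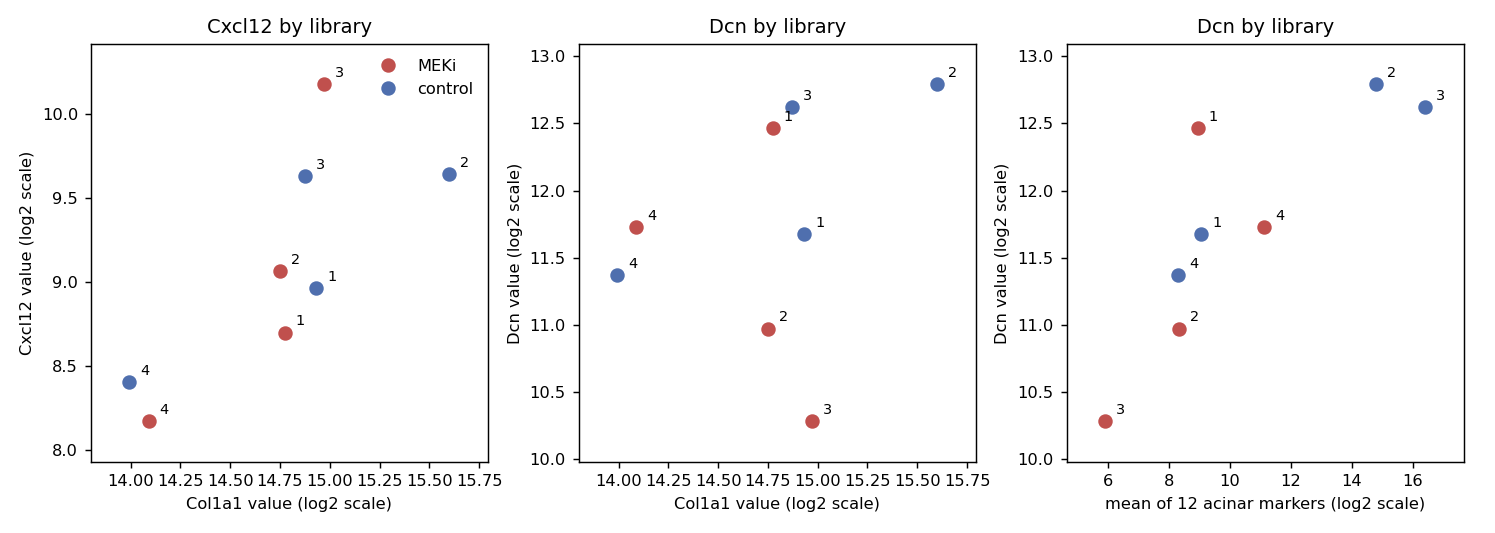
Each point is a library numbered by replicate, MEKi or control by colour, all values on the log2 scale. Cxcl12 is plotted against Col1a1 (r = 0.77), Dcn against Col1a1 (r = 0.31) and Dcn against the mean of 12 acinar markers (r = 0.83). MEKi 3 has the highest Cxcl12 and the lowest Dcn value.

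Other genes of the same programmes were not called either. At an unadjusted p under 0.05 there were 2 adventitial, 2 inflammatory, 2 hyaluronan, 1 CXCL12-axis and 1 acinar gene, beside 1.77% of all genes. Cxcl14 belongs to both the inflammatory and the CXCL12-axis list and is counted under each. The pan-fibroblast, myofibroblastic, proteoglycan and Ly6 lists had none. Limma called 0 of 18 other adventitial genes, beside 0.00523% of all genes. Of the 18, 16 had lower and 2 higher means under MEKi, where 48.4% of all genes had lower means. Their median difference was -0.21, beside 0.01 over all genes. Igfbp6, which encodes a binding protein for insulin-like growth factors, had the smallest p, with 7.74 ± 0.41 under MEKi and 8.31 ± 0.28 under control (SD, n = 4 each). Limma also called 0 of 17 other inflammatory fibroblast genes, 13 lower and 4 higher, with a median of -0.41. Saa3, an acute-phase protein gene, had the smallest p, at 9.04 ± 1.45 under MEKi and 11.58 ± 0.99 under control, with a difference of -2.53 on the log2 scale and an SE of 0.70 (adjusted p = 0.9996 by limma). Saa3 had 10.27, 10.26, 7.38 and 8.27 in MEKi 1 to 4, against 12.01, 11.76, 12.40 and 10.14 in control 1 to 4, with MEKi 1 and MEKi 2 above the lowest control library.

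Of 12 pan-fibroblast genes, 11 had lower and 1 a higher mean under MEKi, with a median of -0.19 and 0 calls. Over all genes, 48.4% had a lower mean, and control 2 had the highest mean of these 12 genes. Pdgfra, a receptor gene expressed by most fibroblasts, had 9.50 ± 0.38 under MEKi and 10.13 ± 0.62 under control (SD, n = 4 each). The 14 myofibroblastic genes divided into 7 higher and 7 lower, with a median of -0.03 and 0 calls, and Acta2, the smooth muscle actin gene, had 12.60 ± 0.16 under MEKi and 12.43 ± 0.03 under control. Among 9 measured small leucine-rich proteoglycan genes beside Dcn and Lum, 7 had lower and 2 higher means, with a median of -0.02 and 0 calls. Ogn, the osteoglycin gene, had 7.65 ± 0.77 under MEKi and 8.29 ± 0.44 under control, and Bgn, the biglycan gene, had 14.23 ± 0.47 under MEKi and 14.25 ± 0.38 under control.

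In the hyaluronan pathway, 10 of 15 measured genes beside Has1 and Has2 had higher and 5 lower means under MEKi, with a median of 0.03 and 0 calls. Itih5, which encodes a protein that binds hyaluronan, had 9.77 ± 0.38 under MEKi and 10.40 ± 0.44 under control (SD, n = 4 each). Cd44, the main hyaluronan receptor gene, had 13.96 ± 0.31 under MEKi and 13.98 ± 0.32 under control. Of 6 genes of the CXCL12 axis, 3 had higher and 3 lower means with 0 calls, and Cxcl14, a related chemokine gene, had the smallest p, at 8.74 ± 0.99 under MEKi and 9.89 ± 0.39 under control. Of 6 measured Ly6 family genes, 2 had higher and 4 lower means with 0 calls, and Ly6m had the smallest p at 5.52 ± 0.18 under MEKi and 5.73 ± 0.08 under control.

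Means were lower under MEKi for 7 of 7 mesothelial, 10 of 12 blood endothelial, 10 of 11 macrophage and 6 of 7 monocyte markers. The same held for 3 of 6 adipocyte, 3 of 9 pericyte and smooth muscle and 5 of 8 epithelial markers. Over all genes, 48.4% had a lower mean. Control 2 had the highest mesothelial, blood endothelial, macrophage and monocyte mean of the 8 libraries, so genes of these lists are not separate observations. Limma called 0 genes in each of these lists, beside 0.00523% of all genes. At an unadjusted p under 0.05 there were 1 mesothelial and 2 pericyte and smooth muscle markers and none in the others, beside 1.77% of all genes. Cxcl12 and the mean of the monocyte markers had r = 0.81 (exact permutation p = 0.0181, rho = 0.76 with p = 0.0368), and r was 0.71 without MEKi 4 and control 2 (adjusted permutation p = 0.244). The sum of these markers lay between 641 and 1076 RPM in MEKi and between 669.5 and 1086 RPM in control libraries. Plac8 alone took 67.3% to 85.8% of it, with 283 to 569 RPKM, beside 0.464 to 2.55 RPKM for Ly6c2. The other 6 summed to between 122.6 and 223.3 RPM in MEKi and between 132.7 and 266.1 RPM in control libraries. None of the 7 was at 0. Among them, Vcan also belongs to the hyaluronan list and Ly6c2 to the Ly6 list. With the mean of the adipocyte markers, Cxcl12 had r = -0.80 (exact permutation p = 0.0205, rho = -0.90 with p = 0.00456). It was -0.49 without MEKi 3 and control 2, and the adjusted permutation p was again 0.244. The 6 measured adipocyte markers summed to between 74.1 and 219 RPM in MEKi and between 97.3 and 118 RPM in control libraries. Of them, 2 had 0 reads in at least 1 library. Lpl alone took 54.3% to 77.0% of the sum. The other 5 summed to between 18.8 and 76.6 RPM in MEKi and between 22.3 and 47.4 RPM in control libraries. The part of monocytes or adipocytes in the Cxcl12 values was not tested.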

How the data were processed

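Total RNA was extracted from fresh isografts and sequenced as stranded libraries on a HiSeq instrument, per the labels' protocols. STAR 2.5.3a, DESeq2 1.18.1 and GRCm38 are named in the submitters' processing notes. No source used here gives the annotation, the counting step or the filter on genes. The authors deposited variance-stabilised values (log2), as named in their table, and 5.12, the lowest, stands for 0 reads. Inverting the transformation gave whole reads, within 0.01, for 100% of values in each library.

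Of 19431 rows, 32 without a gene name (0.101% to 0.167% of reads) were left out, and 86 symbols that occurred in several rows were each taken from their most abundant row. This left 19129 genes, 19118 of them matched to reference names. The test was that of limma 3.58.1 (R 4.3.3; eBayes with a trend, two-sided, Benjamini-Hochberg over all genes, threshold 0.05), without and with Col1a1 subtracted, and the fit was tested on simulated data. Permutation tests were exact, over 70 relabellings or 40320 pairings. P-values measure the spread between these 8 mice, except that limma's p-values relative to Col1a1 rest on a spread pooled over genes. Replicate numbers run from 1 to 4 in both labels, without a stated pairing. No batch or date was given.

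The members and the other gene lists, 17 lists in all with 178 of 190 entries measured, were chosen with earlier results of these data known. Genes named are the members and Col1a1, the nearest gene of each by Pearson r, fixed relatives (Ly6c2, Ly6a, Has3, Bgn, Cxcr4, Ackr3, Dpp4, Cd44, Pdgfra, Acta2), and the gene with the smallest p in each list described. Dusp6 is given as a check of the label, Amy2a5, Rbpjl and Lrrn4 as markers at 0 reads, and Lif was chosen after its values were seen. Coordinates and exon lengths are from GENCODE M21 and promoters from RefSeq, both on GRCm38. Alternatives were no trend, quantile normalization, a filter that kept 75% of genes by mean, no merging of rows, limma voom on recovered reads, acinar or blood endothelial marker means as covariate, the pan-fibroblast mean as reference, the replicate block, each library left out, and, chosen after seeing the data, 2 control libraries left out. Figures were drawn with matplotlib 3.10.9.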

Additional observations from a re-analysis of the deposited data

How the results depend on the processing

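No alternative called any of the 9 genes (Has1 was not tested among the 75% of genes with the highest mean), with or without Col1a1 subtracted. Of 321 recomputed differences, 285 kept their sign and 36 changed it, and the smallest adjusted p among them was 0.373. Sign changes by setting were as follows. With the acinar mean as covariate, the difference was 0.012 for Has1, and relative to Col1a1 it was 0.056 for Has1, -0.37 for Has2, -0.011 for Cxcl12 and 0.0067 for Lum. With the endothelial mean as covariate, the difference without Col1a1 subtracted was 0.31 for Has2 and 0.015 for Cxcl12. With quantile normalization, the relative difference was -0.069 for Has2 and -0.068 for Cxcl12. Without both control libraries of high acinar values, the difference was 0.10 for Has1, 0.34 for Cxcl12 and 0.18 for Col1a1, and -0.30 for Has2 relative to Col1a1. Leaving out each library in turn gave differences of -0.65 to 0.23 for Has2, -0.51 to 0.15 for Cxcl12 and -0.49 to 0.047 for Col1a1. The relative differences then ran from -0.27 to 0.20 for Ly6c1, -0.28 to 0.11 for Has1, -0.42 to 0.41 for Has2, -0.20 to 0.22 for Cxcl12 and -0.50 to 0.21 for Lum. The cause was not tested.

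The count of genes called between the labels was 1 with all libraries and 0 among the 75% of genes with the highest mean, with either covariate and under the replicate block. It ran from 0 to 2 with each library left out, and was 4 without both control libraries of high acinar values. Relative to Col1a1 the count was 44. It was 1 with the acinar covariate, 68 under the replicate block, 16 to 71 with each library left out, and 1 without both control libraries. Same-numbered libraries had correlations of -0.33, 0.20, -0.46 and 0.02 between their deviations. So few values cannot decide whether libraries of 1 number were handled together. Under the block the SE fell for Cxcl12 (0.42 to 0.20), Col1a1 (0.32 to 0.20), Has1, Has2 and Ly6c1. It rose for Pi16 (0.40 to 0.43), Dpt, Clec3b, Dcn and Lum. Has1 had the fewest reads of the 9 genes in most libraries, at most 14 in a MEKi library and 55 in a control library.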

Other observations

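Lif, a cytokine gene of inflammatory fibroblasts, had 9.05, 9.92, 9.56 and 9.02 in MEKi 1 to 4, against 9.76, 10.16, 8.83 and 8.90 in control 1 to 4. Its 4 highest libraries, MEKi 2, MEKi 3, control 1 and control 2, were those with the highest Has2 and Has3 values. Dusp6 was also above 12 in these 4 libraries. Lif was chosen after its values were seen.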
